A study of Mus musculus with 27 samples.

Results

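RNA-Seq was done on MEL cells in which *Cbfa2t3*, the gene of the co-repressor ETO2, was knocked down. MEL cells are a mouse erythroleukaemia line that stays at an immature erythroid stage until an inducer is added. The comparison was taken from the labels and holds 6 of the 27 samples of the study. It sets 2 libraries labelled Eto2 WT against 2 labelled Eto2 KD-sh2 and 2 labelled Eto2 KD-sh3. Per the study's methods, short hairpin RNAs were delivered by lentivirus, and the control was a non-targeting hairpin. The libraries labelled Eto2 WT are therefore called controls here, and all 6 come from the same kind of cell line, which is transformed and not a primary erythroblast. The sh2 and sh3 hairpins target the same mRNA and were pooled as 1 KD group of 4 libraries, as the study's table does. The study's methods call the sequenced replicates biological and independent. What was repeated for each library is not given in the labels, and p-values measure the spread between these libraries. Libraries are numbered 1 and 2 within control, sh2 and sh3 as in the labels.

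ETO2 binds DNA only through its partners. It is recruited by the LDB1 complex, in which GATA1 and TAL1 bind GATA and E-box motifs and LMO2 and LDB1 bridge them, and it brings NCOR and histone deacetylases to these sites. In erythroid cells the complex occupies genes of late maturation, such as those of haem, globin and the red cell membrane, before they are fully expressed. Loss of ETO2 in such cells is known to raise part of this late programme.

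Between 48974735 and 57684583 reads were counted on genes in each library, and a floor of 3 counts equalled at most 0.0611 CPM, the unit of level used below (counts scaled to library size after TMM). Of the 17681 genes listed, 12537 passed the filter on low counts and were tested. Raised and lowered genes had to pass 2 limits, an adjusted p of at most 0.05 in edgeR's quasi-likelihood test and a log2 fold change of at least 0.5 away from 0. The first principal component of the libraries held 50.4% of the variance and separated control from KD, and the second held 21.6% and separated sh2 from sh3. The summed level of 14 erythroid markers lay between 2422 and 2463 CPM in the controls and between 3161 and 3769 CPM in the KD libraries. That of 10 megakaryocyte markers lay between 455 and 468 CPM in the controls and between 567 and 666 CPM in the KD libraries. Markers of other cells were low. The 9 myeloid markers listed summed to between 11.6 and 12.01 CPM in the controls and between 10.4 and 13.3 CPM in the KD libraries, and 6 lymphocyte markers summed to at most 0.617 CPM in any library. The 5 mast cell markers listed summed to between 11.99 and 13.5 CPM in the controls and between 5.91 and 10.1 CPM in the KD libraries. Nearly all of the mast cell sum was *Hdc*, and most of the myeloid sum was *Prtn3*. The 4 stromal markers listed fell from between 44.4 and 50.6 CPM to between 6.62 and 15.5 CPM in sum, nearly all of it *Thy1*. The part of such cells in the results was not tested, and in bulk RNA fewer cells of a type and less RNA per cell cannot be told apart.

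The targeted gene was checked first. *Cbfa2t3* (chr8:125152639-125223009, mm9, minus strand) was at 400.3 and 427 CPM in the controls, 202 and 244 CPM in the sh2 libraries and 123 and 145 CPM in the sh3 libraries. All 4 KD libraries lay below both controls, and sh3 lay below sh2. The mRNA fell 2.32-fold (log2 fold change -1.21, standard error 0.22, adjusted p = 0.00954), and the step from sh2 to sh3 was itself a log2 difference of -0.73 (adjusted p = 0.000752). With 1 control left out, the adjusted p of *Cbfa2t3* was 0.0846 without control 1 and 0.0969 without control 2, while its log2 fold change was -1.26 and -1.17.

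Of the genes tested, 5.74% were called, 375 of them raised (2.99%) and 345 lowered (2.75%). In every gene called, all 4 KD libraries lay on 1 side of both controls, which held for 19.1% of all genes tested on the higher side and for 18.7% on the lower side. The rises were larger than the falls. The median raised gene changed 1.89-fold and the median lowered gene 1.74-fold. At least 2-fold changes were seen in 168 raised and 109 lowered genes, and at least 4-fold changes in 50 raised and 13 lowered genes. The limit on the fold change ran between *Sh3tc2* (0.5003 on the log2 scale) and *Cenpb* (0.4992) among the rises and between *Trim14* (-0.5003) and *Calhm2* (-0.4987) among the falls. These counts rested on both controls. Without control 1, 134 genes were raised and 145 lowered, and without control 2 they were 186 and 174. The lone control was then assumed to vary like the KD libraries, whose spread in this fit includes the gap between sh2 and sh3. None of the 720 genes changed sign. With sh3 alone against the controls 598 genes were lowered.

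**Figure D1:**
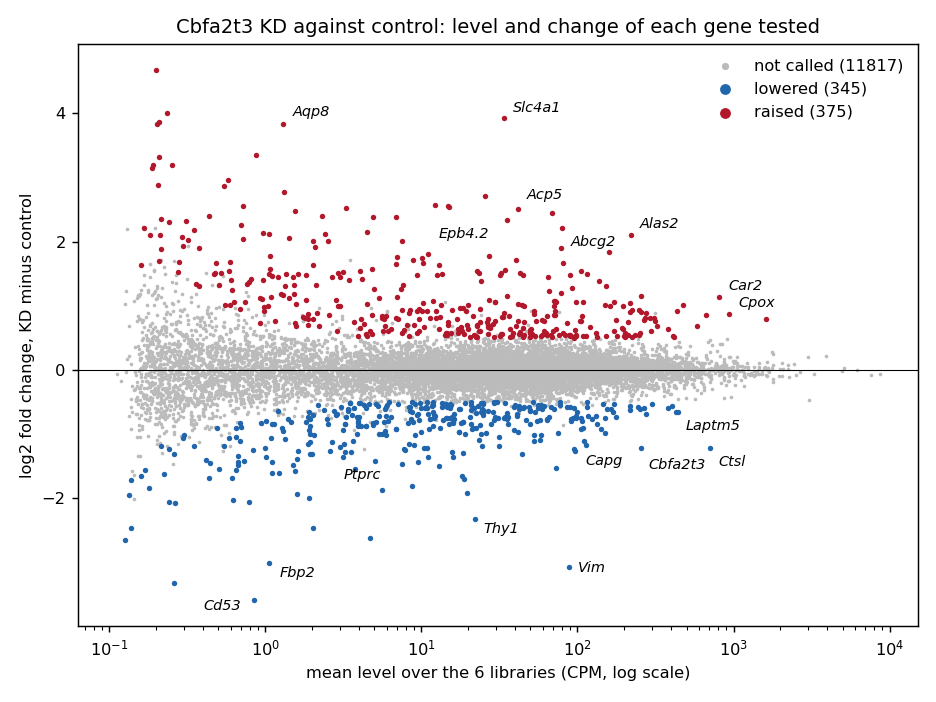
Each point is 1 of the 12537 genes tested in *Cbfa2t3* KD, with its mean level over the 6 libraries in CPM on a log scale (x axis) and its log2 fold change of KD minus control (y axis). Raised genes (375, red) reach higher log2 fold changes than lowered genes (345, blue) reach below 0, and the lowered side holds abundant genes such as *Ctsl* and *Vim*.

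The 12 largest rises among genes with a mean of at least 1 CPM were led by *Slc4a1*, which encodes band 3, the anion exchanger of the red cell membrane. It was at 2.75 and 3.70 CPM in the controls, 26.1 and 28.8 CPM with sh2 and 70.6 and 72.1 CPM with sh3. The 2 hairpins did not overlap, and the rise was 15.3-fold (log2 fold change 3.93, standard error 0.53, adjusted p = 0.00231). *Aqp8*, a water channel, rose from 0.118 and 0.141 CPM to between 1.60 and 2.45 CPM, which is 3.84 ± 0.32 on the log2 scale (SE, adjusted p = 0.000243). *Art4*, the carrier of the Dombrock blood group, rose from 4.28 and 2.89 CPM to 15.7 and 13.95 CPM with sh2 and 27.6 and 26.2 CPM with sh3, which is 5.84-fold (adjusted p = 0.00199). *Acp5*, the tartrate-resistant acid phosphatase, rose 5.67-fold from 10.5 and 9.75 CPM to between 38.7 and 78.7 CPM (adjusted p = 0.00098). Genes better known from other tissues were among them. *Cacna1g*, a T-type calcium channel, rose 6.82-fold from 0.216 and 0.317 CPM, and *Mybpc3*, the cardiac myosin-binding protein C, rose 5.74-fold from 0.805 and 0.776 CPM. *Ctsf*, a lysosomal cysteine protease, rose 5.58-fold from 0.451 and 0.317 CPM. *Hbq1b*, a theta-like globin gene, rose 6.53-fold, from 5.63 and 5.27 CPM to between 17.6 and 58.7 CPM. The other 4 were the apolipoprotein L genes *Apol10a*, *Apol11a* and *Apol11b* and their neighbour *Gm8221*, with log2 fold changes of 2.40 to 2.57. Leaving out control 1 took *Slc4a1* (adjusted p = 0.0552), *Hbq1b* (0.143) and *Gm8221* (0.107) past the limit, and leaving out control 2 took *Hbq1b* (0.138) and *Gm8221* (0.0615).

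The 12 largest falls had a different make-up. *Vim* encodes vimentin, the intermediate filament of immature and mesenchymal cells, and it was among the abundant genes of the controls. It was at 213 CPM in each control, 26.6 and 36.4 CPM with sh2 and 17.95 and 20.5 CPM with sh3. The fall was 8.41-fold (log2 fold change -3.07, standard error 0.22, adjusted p = 0.000124), and all KD libraries were far below both controls. *Thy1*, a surface glycoprotein of T cells and stroma, fell 5.004-fold from 44.1 and 50.1 CPM to 10.5 and 14.7 CPM with sh2 and 6.15 and 6.30 CPM with sh3. *Parm1*, a mucin-like membrane protein, fell 3.81-fold from 36.8 and 40.4 CPM, and *Fam198b*, a Golgi membrane protein, fell 3.25-fold from 37.9 and 31.4 CPM to between 10.4 and 11.1 CPM. *Anxa2*, a calcium-dependent membrane-binding protein, fell 3.16-fold from 32.3 and 34.01 CPM and was lower with sh3 (6.50 and 6.93 CPM) than with sh2 (14.8 and 13.9 CPM). *Rgs18*, a regulator of G-protein signalling in platelets and their precursors, fell 3.53-fold from 17.1 and 16.3 CPM to between 4.17 and 5.80 CPM (adjusted p = 0.000122). *She*, an SH2 domain adaptor, fell 6.17-fold from 10.6 and 10.8 CPM, and *Ccdc150* fell 3.67-fold from 11.4 and 10.3 CPM. Falls from lower levels were those of *Trim16* (5.54-fold), the gluconeogenic enzyme gene *Fbp2* (8.05-fold), the cytotoxic granule protease gene *Gzmb* (3.98-fold) and *Pik3r6* (3.83-fold), a regulatory subunit of PI3K-gamma. Leaving out control 1 took *Gzmb* (adjusted p = 0.0866) and *Anxa2* (0.0847) past the limit, and leaving out control 2 took *Gzmb* (0.0876), *Anxa2* (0.0862) and *Pik3r6* (0.0708).

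The most abundant genes called were those with the highest mean CPM, a count that grows with the length of a transcript. Among the rises they included *Hbb-b2* counted together with *Hbb-bt*, *Cpox*, *Car2* and *Sptb*. The adult beta-globin pair went from 1735 to 2977 RPKM (the authors' reads scaled to gene length and library size, means of 2 control and 4 KD libraries), and the carbonic anhydrase gene *Car2* from 254 to 551 RPKM. Among the falls they were *Ctsl*, *Laptm5*, *Flna*, *Nucb1* and *Hdac7*. The lysosomal protease gene *Ctsl* went from 1191 and 1082 CPM to between 429.8 and 549 CPM, a 2.34-fold fall (adjusted p = 0.000127) and from 580 to 246 RPKM. *Hdac7*, a class IIa histone deacetylase, fell 1.51-fold from 469 and 506 CPM to between 301 and 355 CPM. *Nucb1*, a Golgi calcium-binding protein, fell 1.47-fold. *Hbb-b2*, *Cpox*, *Laptm5* and *Nucb1* missed the limit without control 1 (adjusted p between 0.106 and 0.209) and without control 2 (between 0.0656 and 0.273). *Laptm5* also missed it with the replicate number as a block (adjusted p = 0.0608), in DESeq2 (0.0791), and without sh2 library 1 (0.0762), sh3 library 1 (0.0616) or sh3 library 2 (0.0776).

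**Figure D2:**
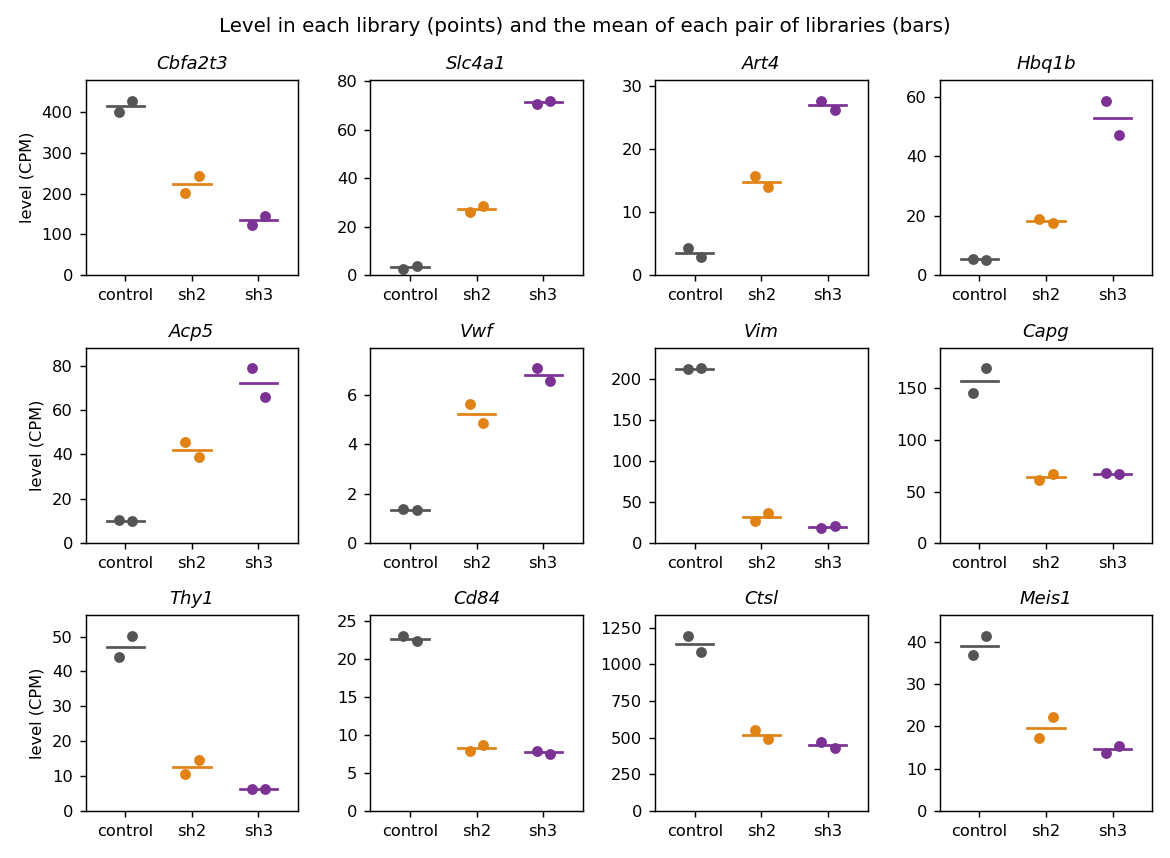
Level in CPM (y axis, from 0) of 12 genes in the 2 control, 2 sh2 and 2 sh3 libraries (points), with the mean of each pair of libraries as a bar. *Cbfa2t3* steps down from control to sh2 to sh3, *Slc4a1*, *Art4* and *Hbq1b* step up in the same order, and *Capg*, *Cd84* and *Ctsl* lie at similar low levels with both hairpins.

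ETO2 sites in MEL cells were available from a single combined list of ETO2 and IRF2BP2 sites, in which 4490 of 13229 sites were of the classes with ETO2. Each site was given to the protein-coding gene with the nearest start, within 1 Mb. Positions were found by symbol for 87.0% of the genes tested. At least 1 ETO2 site was assigned to 217 of 342 raised genes (63.5%), to 98 of 312 lowered genes (31.4%) and to 1915 of 10247 genes not called (18.7%). The sites of raised genes were closer, with a median distance to the start of 8062.5 bp, against 22215.5 bp for lowered genes and 21042 bp for genes not called. At least 3 sites were assigned to 10.5% of raised, 4.49% of lowered and 1.86% of other genes. IRF2BP2 shared 68.4% of the sites of raised genes, 72.0% of those of lowered genes and 61.6% of those of other genes. With sites at or above the median fold enrichment of 9.67 alone, the shares of genes with a site were 44.2, 17.9 and 10.9%. The shares are descriptions of a single list without replicates and were given no test.

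Of the 12 genes with the largest rises 5 had an ETO2 site, and of the 12 with the largest falls 7. The site with the highest fold enrichment is shown for 6 of these genes, to set sites at raised genes beside sites at lowered genes. Each sequence is 100 bases of mm9 around the centre of the site on the plus strand, and capitals mark the letters GATA on either strand (TATC on the strand printed). Distances are from the gene's start, negative upstream.
Slc4a1, raised, chr11:102236622-102236721, -9155 bp from the start, fold enrichment 14.3: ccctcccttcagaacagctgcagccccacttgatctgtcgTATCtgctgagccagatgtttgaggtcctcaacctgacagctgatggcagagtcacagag
Art4, raised, chr6:136806214-136806313, -10 bp from the start, fold enrichment 20.6: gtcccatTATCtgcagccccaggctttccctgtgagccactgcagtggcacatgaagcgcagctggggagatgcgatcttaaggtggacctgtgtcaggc
Acp5, raised, chr9:21940255-21940354, -115 bp from the start, fold enrichment 9.78: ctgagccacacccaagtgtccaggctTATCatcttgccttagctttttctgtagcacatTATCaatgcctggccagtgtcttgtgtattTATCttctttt
Rgs18, lowered, chr1:146622581-146622680, -66 bp from the start, fold enrichment 49.0: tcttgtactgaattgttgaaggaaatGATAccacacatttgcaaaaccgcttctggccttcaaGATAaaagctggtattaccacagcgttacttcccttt
Fam198b, lowered, chr3:79711253-79711352, 22848 bp from the start, fold enrichment 30.5: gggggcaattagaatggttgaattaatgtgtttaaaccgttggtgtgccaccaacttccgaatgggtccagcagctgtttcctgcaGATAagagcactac
Vim, lowered, chr2:13495242-13495341, -262 bp from the start, fold enrichment 7: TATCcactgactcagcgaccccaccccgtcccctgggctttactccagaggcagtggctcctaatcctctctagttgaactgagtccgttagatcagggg

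The site of *Rgs18* had the highest enrichment of the 12 sites, although *Rgs18* fell in KD. All 6 windows shown held GATA, and of the 12 windows those of *Aqp8* and *Thy1* held none. In windows of 200 bases it was found at 97.2% of all 4490 ETO2 sites, at 96.5% of the 376 sites of raised genes and at 95.3% of the 150 sites of lowered genes, against 62.9% of the 8739 sites with IRF2BP2 alone. The longer AGATAA, which contains GATA, was at 55.1% of the sites of raised and 53.3% of those of lowered genes, and at 57.4% of all ETO2 sites. GATA placed 7 to 9 bases after CTG, the composite arrangement of E-box and GATA motifs, was at 50.5% of the sites of raised genes, 42.0% of those of lowered genes and 43.3% of all ETO2 sites. The RUNX-type letters TGTGGT were at 23.9% of the sites of raised and 30.7% of those of lowered genes, and the ETS-type letters GGAAGT at 17.8% and 27.3%. At all ETO2 sites TGTGGT was found in 27.8% and GGAAGT in 22.7%. Motifs were searched on both strands, and a match is a description of the letters, not evidence of binding.

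The partners of ETO2 were then considered. Of the 14 genes of the LDB1 complex and its close partners tested, 3 rose (21.4%, beside 2.99% of all genes tested), none fell, and the median log2 fold change was 0.22, beside 0.00 over all genes tested. *Tal1*, the E-box factor of the complex, rose 1.48-fold from 197 and 180.3 CPM to between 265 and 292 CPM (adjusted p = 0.00098). *Runx1*, which partners the complex in progenitors and megakaryocytes, rose 1.495-fold from 94.9 and 102 CPM to between 130.4 and 160.2 CPM. *Klf1*, the erythroid CACCC-box factor, had a log2 fold change of 0.51 (adjusted p = 0.00366), just past the limit, and was under it without the filter on low counts, with sh2 alone (0.43) and without sh3 library 1 (0.46) or sh3 library 2 (0.49). *Gata1* was at 451 and 469 CPM in the controls and between 524 and 556 CPM in KD, a log2 fold change of 0.22 that did not reach the limit on the fold change. *Ldb1* (log2 fold change 0.17, adjusted p = 0.215) and *Lmo2* (-0.01, 0.98) were not called. Of 16 ETO and NCOR co-repressor genes 2 fell (12.5%, beside 2.75% of all genes tested), the targeted gene *Cbfa2t3* and *Irf2bpl*, a relative of *Irf2bp2*, which fell 1.60-fold from 31.5 and 34.9 CPM to between 17.4 and 26.4 CPM. *Irf2bp2* was not called (log2 fold change 0.06, adjusted p = 0.74). Without control 1 *Runx1* (adjusted p = 0.081), *Klf1* (0.0736) and *Irf2bpl* (0.139) were lost, and without control 2 *Klf1* (0.0516) and *Irf2bpl* (0.223).

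Of 25 regulators of erythroid maturation 7 rose (28%, beside 2.99% of all genes tested) and none fell, with a median log2 fold change of 0.19. *Ypel4*, a gene switched on late in erythropoiesis, rose from 0.137 and 0.106 CPM to between 1.13 and 1.37 CPM, which is 3.34 ± 0.27 on the log2 scale (SE, adjusted p = 0.000212). *Tmcc2*, a coiled-coil membrane protein, rose 2.93-fold from 13.9 and 16.0 CPM to between 39.0 and 48.4 CPM. *Btg2*, an antiproliferative gene, rose 2.22-fold and more with sh2 (47.1 and 49.7 CPM) than with sh3 (37.4 and 38.3 CPM). *Rbm38*, an RNA-binding protein of late erythroid splicing, rose 1.55-fold from 134 and 154 CPM to between 205 and 247 CPM. The fetal globin silencer *Bcl11a* (log2 fold change -0.21, adjusted p = 0.0962) and *Nfe2* (0.16, 0.123) were not called. Without control 1 *Rbm38* was lost (adjusted p = 0.0583).

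Of 17 haem genes 10 rose (58.8%) and of 21 iron genes 4 rose (19.05%), beside 2.99% of all genes tested, and none of either list fell. *Alas2*, the first enzyme of erythroid haem synthesis, was at 69.7 and 68.6 CPM in the controls, 259 and 209 CPM with sh2 and 377 and 338 CPM with sh3 (log2 fold change 2.10, standard error 0.22). *Uros* rose 2.78-fold, *Ppox* 2.11-fold and *Fam210b*, a mitochondrial protein of iron import, 2.08-fold. *Alas1*, the housekeeping counterpart of *Alas2*, had a log2 fold change of -0.40 (adjusted p = 0.0587). Among iron genes, *Abcg2*, an exporter of porphyrins, rose 3.73-fold from 28.7 and 27.2 CPM to between 70.4 and 134 CPM. *Slc25a37*, the mitochondrial iron importer mitoferrin-1, rose 1.99-fold, with 148 and 147 CPM in sh2 and 229.7 and 254 CPM in sh3. *Fam132b*, the gene of erythroferrone, rose 1.95-fold from 12.01 and 10.6 CPM, and *Blvrb*, biliverdin reductase B, rose 1.56-fold. The transferrin receptor gene *Tfrc* (log2 fold change 0.38, adjusted p = 0.105) and the ferritin heavy chain gene *Fth1* (0.03) were not called. *Slc25a37* and *Fam132b* were lost without control 1 (adjusted p of 0.226 and 0.0953) and without control 2 (0.152 and 0.134), and *Slc25a37* also with the replicate block (0.0526).

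Of the 5 globin genes tested under their own symbol 4 rose, beside 2.99% of all genes tested, and the merged row of *Hbb-b2* and *Hbb-bt* described above rose too. *Hba-x*, embryonic zeta globin, was at 27.8 and 37.8 CPM in the controls, 163 and 49.4 CPM with sh2 and 119 and 83.8 CPM with sh3, and the KD libraries differed widely among themselves. Its rise was 3.17-fold (adjusted p = 0.0333) and missed the limit with the replicate block (0.0562) and without sh3 library 1 (0.0566). *Hbq1a* rose 4.03-fold from 2.49 and 2.47 CPM to between 7.80 and 12.5 CPM. *Hbb-y*, embryonic epsilon-type globin, had 2 counts in each control and between 14 and 16 in each KD library. It was at least 5.20-fold higher than the floor of 3 counts in a control library. *Hba-a1* was at between 0.0607 and 0.381 CPM in the counts and was not called, although the authors' RPKM were 33.9 in control and 83.6 in KD. Reads of near-identical globin copies, such as *Hbq1a* and *Hbq1b*, may have been divided between them. Without control 1 *Hba-x* (adjusted p = 0.291), *Hbq1b* (0.143) and *Hbb-y* (0.0597) were lost, and without control 2 *Hba-x* (0.159), *Hbq1b* (0.138) and *Hbb-y* (0.0613).

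Of 40 genes of the red cell membrane and surface 17 rose (42.5%, beside 2.99% of all genes tested) and 2 fell (5%, beside 2.75%). *Epb4.2*, an erythrocyte membrane protein, rose 5.06-fold from 9.81 and 9.24 CPM to between 36.6 and 57.5 CPM. The falls were *Cd44*, an adhesion receptor that erythroid cells lose as they mature, and the tetraspanin gene *Tspan8*. *Cd44* was at 151 and 146 CPM in the controls and between 91.1 and 105 CPM in KD, a 1.499-fold fall (adjusted p = 0.00094). *Rhag* (log2 fold change -0.15), *Xk* (0.18) and *Aqp1* (0.10) were not called. With sh2 alone 11 members rose and 4 fell, and with sh3 alone 19 rose and 2 fell. Without control 1, 8 members rose and 1 fell, and without control 2, 11 rose and 1 fell. *Tspan8* was lost in both cases (adjusted p of 0.104 and 0.071).

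Enzymes of the red cell and of glucose use changed in part. Of 17 carbonic anhydrases and red cell enzymes 6 rose (35.3%, beside 2.99% of all genes tested) and none fell, and without control 1 or without control 2, 3 rose. *Car2* was at 469 and 435 CPM in the controls and between 839 and 1142 CPM in KD, a 2.19-fold rise (adjusted p = 0.00115), and *Gpx1*, a peroxidase that protects haemoglobin, rose 1.55-fold. *Car1*, a marker of mature red cells, had a log2 fold change of 0.39, under the limit. Of 28 genes of glycolysis and glucose transport 5 rose (17.9%) and 1 fell (3.57%, beside 2.75% of all genes tested). Without control 1 or without control 2, 1 rose and 1 fell, and with sh3 alone 4 rose and 5 fell. *Pklr*, the pyruvate kinase of red cells and liver, rose 1.90-fold from 263 and 282 CPM to 432 and 445 CPM with sh2 and 594 and 596 CPM with sh3. *Pkm*, the kinase of most other cells, was not called (log2 fold change -0.25, adjusted p = 0.416). *Bpgm*, which makes 2,3-bisphosphoglycerate in red cells, rose 1.56-fold. *Slc16a10* rose 1.79-fold and is 1 of the 5 rises of the list, though it is a transporter of aromatic amino acids. Of the glucose transporters *Slc2a1* rose 1.46-fold (adjusted p = 0.0268) and *Slc2a3* fell 1.55-fold from 288 and 281 CPM to between 165 and 199 CPM (0.00114). *Gapdh* (0.03) and *Ldha* (0.04) had log2 fold changes near 0. *Pklr*, *Bpgm*, *Car5b* and *Slc2a1* were among those lost without control 1 (adjusted p between 0.0856 and 0.279) and without control 2 (between 0.0524 and 0.19). *Slc2a1* also fell under the limit on the fold change without sh2 library 1 (0.49) or sh2 library 2 (0.48) and with sh3 alone (0.36), and *Bpgm* with sh2 alone (0.43).

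Of 32 megakaryocyte and platelet genes 7 rose (21.9%, beside 2.99% of all genes tested) and 2 fell (6.25%, beside 2.75%). *Vwf*, von Willebrand factor, rose 4.44-fold from 1.39 and 1.32 CPM to between 4.85 and 7.07 CPM (adjusted p = 0.000318). *Itgb3*, the beta subunit of the platelet fibrinogen receptor, rose 1.96-fold from 10.6 and 11.1 CPM, to 22.4 and 29.1 CPM with sh2 and 15.4 and 17.8 CPM with sh3. Its alpha subunit gene *Itga2b* was not called (log2 fold change 0.43, adjusted p = 0.123). *Slamf1* rose 1.99-fold from 27.8 and 26.8 CPM and *Gp9*, a subunit of the von Willebrand factor receptor, 1.61-fold from 1.59 and 1.57 CPM. The 2 falls were the growth factor gene *Angpt1*, 4.07-fold from 1.39 and 1.11 CPM, and *Clec2d*, a C-type lectin, 2.58-fold. *Pf4* (0.34) and *Fli1* (-0.20) stayed inside the limit on the log2 fold change. With sh2 alone 10 members rose and 2 fell, and with sh3 alone 8 rose and 5 fell. Without control 1, 2 members rose and none fell, and without control 2, 3 rose and 1 fell. *Itgb3*, *Gp9* and *Clec2d* were lost in both cases (adjusted p between 0.114 and 0.229), *Angpt1* without control 1 (0.0688) and *Itgb3* also without sh2 library 1 (0.052).

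Of 34 pan-leucocyte genes 11 fell (32.4%, beside 2.75% of all genes tested) and 1 rose (2.94%, beside 2.99%). The median log2 fold change was -0.29, and all KD libraries lay below both controls for 28 of the 34, beside 18.7% of all genes tested. *Ptprc*, the CD45 phosphatase, was at 13.4 and 12.6 CPM in the controls and between 3.60 and 5.54 CPM in KD, a 2.78-fold fall (adjusted p = 0.000559). *Cd53*, a leucocyte tetraspanin, fell 12.003-fold from 2.51 and 1.83 CPM to between 0.0815 and 0.237 CPM. *Cd84*, a SLAM family receptor, fell 2.83-fold from 23.0 and 22.3 CPM to between 7.53 and 8.63 CPM, and *Arhgdib*, a GTPase regulator of haematopoietic cells, 1.99-fold from 217 and 233 CPM to between 107 and 115 CPM. Other falls were those of *Spn*, the sialoglycoprotein CD43 (log2 fold change -0.74), *Coro1a* (-0.90) and *Lcp1* (-0.97), which bind actin. The rise was *Alox5*, 5-lipoxygenase, from 69.95 and 78.1 CPM to between 104 and 112 CPM, whereas its activating protein gene *Alox5ap* fell (-0.73). Genes near 0 included *Rac2* (0.03) and *Was* (-0.11). Leaving out control 1 or control 2 left 9 lowered members each, and *Alox5* went to a log2 fold change of 0.45 without control 1.

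Of 18 tested myeloid and mast cell genes, out of 43 in the list, 6 fell (33.3%, beside 2.75% of all genes tested) and 2 rose (11.1%, beside 2.99%), with a median log2 fold change of -0.29. The IgG receptor genes *Fcgr3* and *Fcgr2b* and *Tyrobp*, an adaptor of other myeloid receptors, fell from low levels, *Fcgr3* from 2.14 and 1.85 CPM (3.04-fold), *Fcgr2b* from 3.22 and 3.39 CPM (2.49-fold) and *Tyrobp* from 2.65 and 2.75 CPM (2.62-fold). *Srgn*, the proteoglycan core of secretory granules, fell 1.96-fold from 59.9 and 63.3 CPM to between 29.2 and 33.3 CPM. The rises were *Csf2rb*, the beta subunit shared by the receptors of IL-3, IL-5 and GM-CSF, and *Csf2rb2*, the beta subunit specific to IL-3. *Csf2rb2* was at 40.5 and 41.7 CPM in the controls, 79.3 and 95.7 CPM with sh2 and 131 and 151 CPM with sh3, a 2.78-fold rise (adjusted p = 0.00491). Of the granule genes *Mpo*, *Elane* and *Ctsg* did not pass the filter on low counts, and *Prtn3* was not called, with means of 9.24 CPM in control and 10.7 CPM in KD. Of 7 tested lymphocyte genes none was called in edgeR. *Lat*, an adaptor of the T-cell receptor, had a log2 fold change of -0.31 (adjusted p = 0.326) and *Lck* of 0.05. *Lat* was 68.5 and 75.1 CPM in the controls and 46.9 and 45.8 CPM with sh3, and with sh3 alone it fell (-0.64, adjusted p = 8.57e-06). *Csf2rb* and *Csf2rb2* were lost without control 1 (adjusted p of 0.136 and 0.0843) and without control 2 (0.119 and 0.0656), and *Fcgr3* without control 1 (0.054).

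Of 29 genes of filaments and the actin cytoskeleton 8 fell (27.6%, beside 2.75% of all genes tested) and 1 rose (3.45%, beside 2.99%), with a median log2 fold change of -0.20. Beside *Vim*, *Capg*, a protein that caps actin filaments, fell 2.40-fold from 145 and 169 CPM to between 61.0 and 67.9 CPM (adjusted p = 6.05e-05). *Lgals1*, galectin-1, fell from 152 and 154 CPM to between 60.2 and 72.2 CPM, a log2 fold change of -1.23. *S100a4* fell 4.16-fold from 1.69 and 1.52 CPM, *S100a6* had a log2 fold change of -0.86, and *Flna*, filamin A, fell 1.58-fold from 572 and 562 CPM to between 331 and 399 CPM. *Ahnak* also fell (-0.57). *Actb* (-0.18), *Myh9* (-0.18) and *Lmnb1* (-0.05) were not called. *Myl9*, a myosin light chain of contractile cells, was the 1 rise (1.44-fold), and it missed the limit with the replicate block (adjusted p = 0.0594), without control 1 (0.273) and without control 2 (0.161), and the limit on the fold change without sh2 library 1 (0.43) and with sh3 alone (0.34). Without control 1 5 members fell, the lost ones including *Anxa2* (0.0847) and *S100a4* (0.0552), and without control 2 6 members fell.

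Of 32 genes of cytokine receptors and JAK-STAT5 signalling 5 rose (15.6%, beside 2.99% of all genes tested) and 2 fell (6.25%, beside 2.75%), and the median log2 fold change of the list was -0.07. Without control 1 or without control 2, 2 rose and none fell, and with sh3 alone 5 fell. *Epor*, the erythropoietin receptor, rose 1.52-fold from 211 and 230.2 CPM to between 308 and 347 CPM (adjusted p = 0.00109), and *Il9r* rose 1.67-fold from 140.1 and 149 CPM to between 234 and 250.1 CPM. *Socs3*, a feedback inhibitor, also rose (log2 fold change 0.56). *Kit*, the stem cell factor receptor, was low in these cells, at 2.02 and 2.08 CPM in the controls and between 0.876 and 1.52 CPM in KD. Its fall of 1.76-fold (adjusted p = 0.0415) was lost with the replicate block (0.0616), without control 1 (0.24), without control 2 (0.246) and without sh2 library 1 (0.0645), sh3 library 1 (0.0729) or sh3 library 2 (0.0813). *Cbl*, a ubiquitin ligase that ends receptor signalling, fell 1.63-fold and was lost without control 1 (0.211), control 2 (0.163) or sh3 library 1 (0.0546). *Stat5a* (-0.04), *Stat5b* (0.09) and *Jak2* (-0.22) were not called. Of 27 MAPK and immediate early genes 2 rose (7.41%) and 1 fell (3.70%), all of them MAPK phosphatases. With sh2 alone 4 rose and 1 fell, and with sh3 alone 1 rose and 6 fell. *Dusp2* rose 1.74-fold and *Dusp1* 1.55-fold, and *Dusp6*, an ERK phosphatase, fell 1.83-fold from 6.34 and 6.24 CPM to between 2.87 and 4.12 CPM. Without control 1 *Dusp1* (0.221) and *Dusp6* (0.096) were lost, and without control 2 all 3 (between 0.0793 and 0.302). *Dusp1* was also lost with the replicate block (0.0724) and without sh2 library 1 (0.0875), sh2 library 2 (0.0674) or sh3 library 1 (0.0833).

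Of 23 progenitor genes and oncogenic factors 4 fell (17.4%, beside 2.75% of all genes tested) and 1 rose, *Runx1* (4.35%, beside 2.99%). Without control 1, 1 fell and none rose, and without control 2, 2 fell and 1 rose. *Meis1*, a homeobox factor of stem cells and leukaemia, was at 36.9 and 41.3 CPM in the controls, 17.3 and 22.1 CPM with sh2 and 13.8 and 15.3 CPM with sh3, a 2.28-fold fall (adjusted p = 0.00219). *Id1*, an inhibitor of E proteins, fell 1.70-fold from 46.9 and 50.1 CPM to between 25.2 and 36.7 CPM, and *Tcf4*, an E protein, 1.51-fold. Other members of the list were not called. *Spi1* (log2 fold change -0.23, adjusted p = 0.0792), *Myb* (-0.12, 0.489), *Fli1* (-0.20, 0.134), *Myc* (0.23, 0.216) and *Gata2* (0.00, 0.99) were among them. *Kit* and *Id1* were lost without control 1 (adjusted p of 0.24 and 0.085) and without control 2 (0.246 and 0.114), and *Tcf4* (0.066) and *Runx1* (0.081) without control 1.

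Interferon-stimulated and antigen presentation genes had the lowest median of the 26 lists, a log2 fold change of -0.38, and 6 of 32 fell (18.8%, beside 2.75% of all genes tested) while none rose. *B2m*, the light chain of MHC class I, was at 124 and 121 CPM in the controls and between 72.6 and 84.3 CPM in KD, a 1.51-fold fall (adjusted p = 0.00116). *Oas2* fell 2.06-fold from 43.2 and 52.8 CPM to between 18.8 and 28.6 CPM, and *Ddx58*, the RNA sensor RIG-I, 1.68-fold. The immunoproteasome gene *Psmb9* fell 1.62-fold from 14.9 and 14.7 CPM to between 6.75 and 10.6 CPM, and *Psmb8* had a log2 fold change of -0.58. *H2-D1* (-0.46) stayed inside the limit on the fold change, and *Isg15* (0.40, adjusted p = 0.0621) was not called. Without control 1, 6 members fell, not *Psmb9* (0.201), and without control 2, 2 fell, with *Oas2* at an adjusted p of 0.0653 and *Psmb9* at 0.163. *Psmb9* was also lost without sh3 library 1 (0.0505). DESeq2 called 9 members lowered, and edgeR called 11 with sh2 alone and 10 with sh3 alone.

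Of 44 cell cycle regulators 3 rose (6.82%, beside 2.99% of all genes tested) and none fell, and all KD libraries lay above both controls for 18 of the 44, beside 19.1% of all genes tested. *Cdc25b*, a phosphatase that activates CDK1, rose 1.998-fold from 114 and 121 CPM to between 205 and 255 CPM (adjusted p = 0.00041). *Ccne1*, cyclin E1, rose 1.78-fold from 69.95 and 70.8 CPM to between 121 and 132 CPM, and *Ccnd3*, the D-type cyclin of erythroid cells, 1.43-fold. *Mki67* (log2 fold change 0.01), *Ccnb1* (-0.07) and *Cdkn1b* (-0.43) were not called. Of 29 survival and death genes 2 rose (6.90%), the BH3-only genes *Bcl2l11* (1.68-fold, from 17.6 and 18.5 CPM) and *Bik* (1.51-fold, from 3.32 and 3.63 CPM), and *Bcl2l1* was not called (-0.07). *Ccnd3* was lost without control 1 (adjusted p = 0.0596) and without sh2 library 2 (log2 fold change 0.47), and *Bik* without control 1 (adjusted p = 0.252), control 2 (0.141), sh2 library 1 (0.0529) or sh3 library 1 (0.0596).

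The remaining lists are given by their counts, to be read beside the 2.99% raised and 2.75% lowered of all genes tested. Of 31 autophagy genes *Park2* (1.995-fold) and *Wipi1* (1.75-fold) rose, *Bnip3l*, the mitophagy receptor of red cells, had a log2 fold change of 0.32, and none fell. Of 30 sterol genes *Hsd17b7* rose 1.48-fold and *Abca1*, the cholesterol exporter, fell 1.74-fold from 149 and 151 CPM to between 75.2 and 105 CPM (adjusted p = 0.00312). Of 30 antioxidant genes *Gpx1* was the only rise, and of 23 genes of the amino acid stress response *Ppp1r15a* was (1.46-fold). Of 23 integrin and adhesion genes *Itgb3* rose and *Cd44* fell, and with sh3 alone 6 fell. None of the 10 genes of the small RNA machinery that processes hairpins was called in edgeR, with *Drosha* at a log2 fold change of 0.18 and *Xpo5* at -0.03, and 2 of the 10, *Dicer1* (0.27) and *Tarbp2* (0.32), had an adjusted p under the limit. *Park2*, *Wipi1*, *Hsd17b7* and *Ppp1r15a* were lost without control 1 (adjusted p between 0.0861 and 0.174) and without control 2 (between 0.0528 and 0.167), and *Ppp1r15a* without sh2 library 2 (log2 fold change 0.48).

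**Figure D3:**
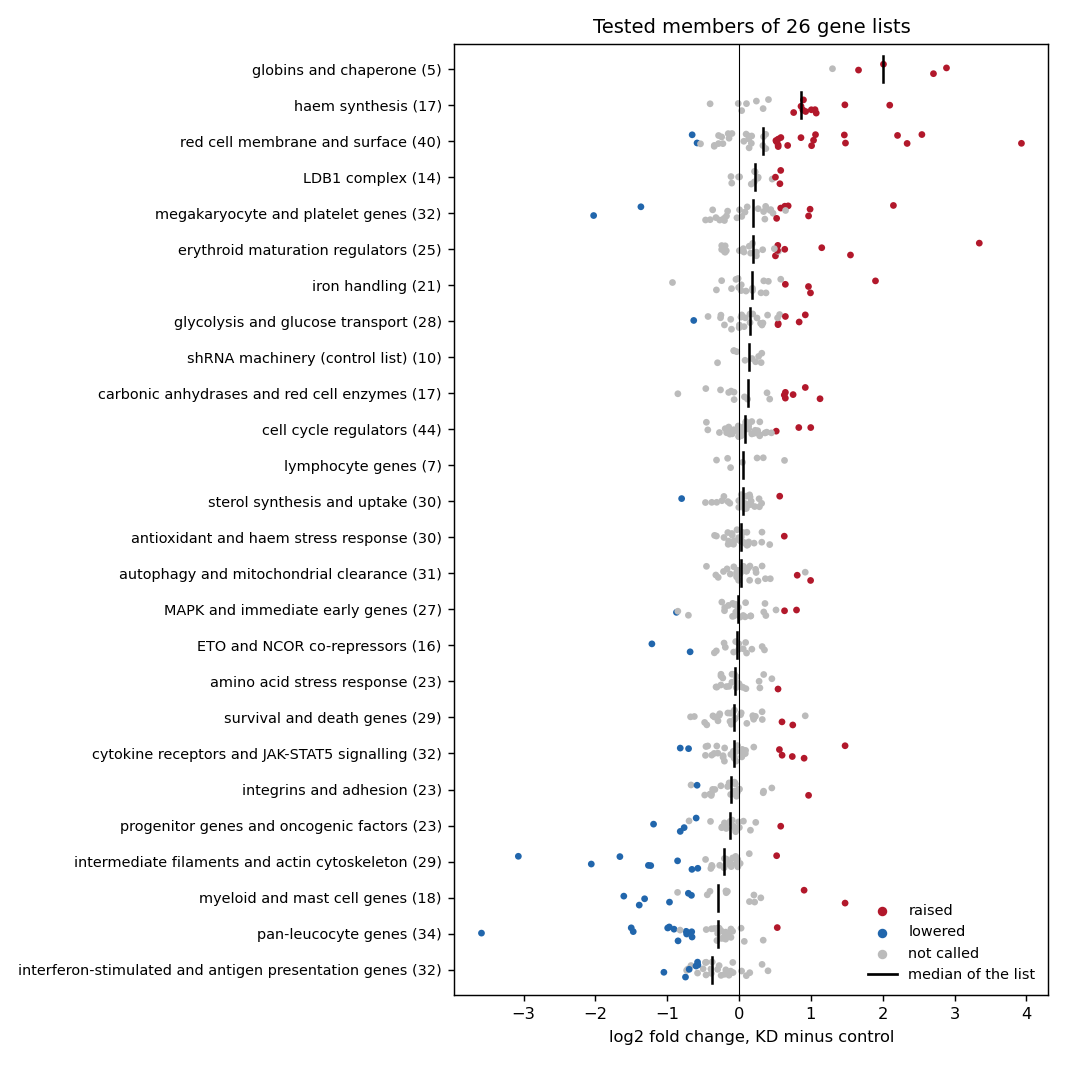
Log2 fold change of KD minus control (x axis) of each tested member of the 26 lists (rows, number tested in brackets), with raised members in red, lowered in blue and others in grey. Rows are ordered by their median (black bar), from globins at 2.01 to interferon-stimulated and antigen presentation genes at -0.38.

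The hairpins were compared with each other. Genes were called on both hairpins pooled and against shared controls, so that an equal sign with sh2 and sh3 is no separate result. The change was larger with sh3 for 273 raised and 225 lowered genes, and the median log2 fold change of the raised genes was 0.84 with sh2 and 1.00 with sh3, and that of the lowered genes -0.74 and -0.87. A direct fit of sh3 against sh2 put 465 of the 12537 genes past both limits, and 79 of them were among the 720 genes called in KD. *Hbq1b* rose by 1.74 with sh2 and 3.28 with sh3 on the log2 scale, a difference of 1.54 (adjusted p = 1.05e-05), and *Slc4a1* by 3.08 and 4.46. Among the falls *Thy1* changed by -1.90 with sh2 and -2.92 with sh3. The order was turned for *Itgb3*, at 1.25 with sh2 and 0.62 with sh3 (adjusted p = 0.00601 for the difference), and for *Mybpc3*, at 2.75 and 2.24 (0.034). Against the controls, *Nucb1*, *Irf2bpl*, *Laptm5*, *Kit*, *Klf1* and *Bpgm* missed a limit with sh2 alone, and *Tcf4*, *Alox5*, *Myl9*, *Dusp1*, *Ccnd3*, *Slc2a1* and *Ppp1r15a* with sh3 alone. The level of *Cbfa2t3* and the identity of the hairpin cannot be told apart here.

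**Figure D4:**
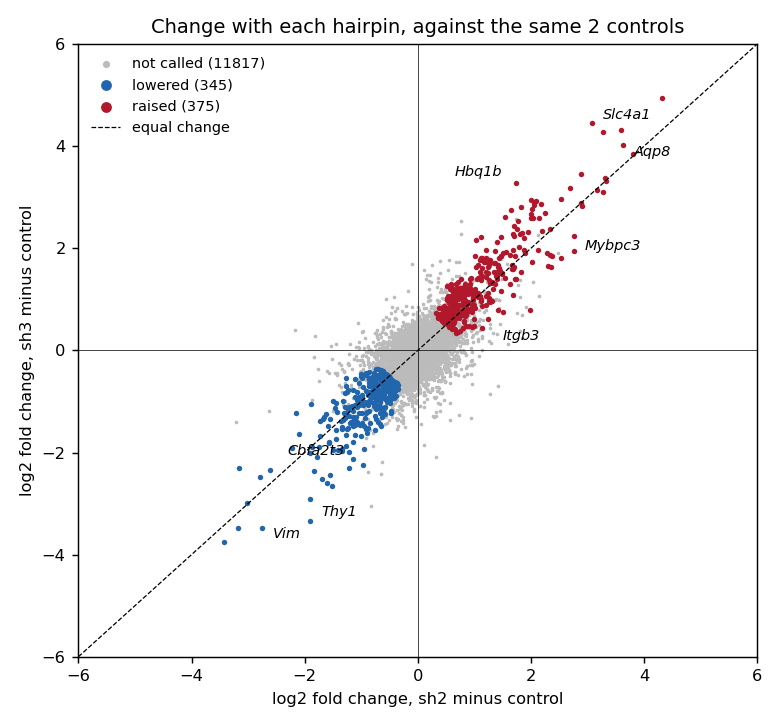
Log2 fold change of sh2 minus control (x axis) against that of sh3 minus control (y axis) for each gene tested, both against the same 2 controls. Called genes lie in the upper right and lower left by their selection, and 273 of the 375 raised genes and 225 of the 345 lowered genes lie farther from 0 with sh3.

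Called genes lay side by side on chromosomes. Among tested genes with a position, 65 of 342 raised genes (19.0%) had another raised gene as a direct neighbour, beside 5.65% of all other genes, and 55 of 312 lowered genes (17.6%) had a lowered neighbour, beside 5.25%. The longest run was 6 raised genes on chromosome 15, with starts between 77307477 and 77473716 (mm9), namely *Apol10a*, *Apol11a*, *Apol7c*, *Apol10b*, *Gm8221* and *Apol11b*. *Apol11b* was the most abundant by count, at 17.2 and 17.5 CPM in the controls, 77.3 and 63.0 CPM with sh2 and 119 CPM in each sh3 library. These genes are close paralogs, and reads may have been shared among them, so that they are uncertain as separate rises. A run of 4 raised genes on chromosome 11 held *Rhbdf1*, *Mpg*, *Nprl3* and *Hba-x*, the stretch that carries the alpha-globin enhancers, and a run of 3 on chromosome 4 held *Tal1*, *Pdzk1ip1* and *Cyp4x1*. Lowered runs of 3 included the Schlafen genes *Slfn9*, *Slfn8* and *Slfn10-ps* on chromosome 11 and *Insl6*, *Cd274* and *Pdcd1lg2* on chromosome 19, where the last pair are the genes of the PD-1 ligands. Other runs of 3, raised or lowered, are not listed. Neighbours and overlapping genes can share reads, and the counting of strands is not given in the sources used here.

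The changes in KD were set beside those on induced differentiation of MEL cells, measured in 4 other libraries (2 labelled MEL non-induced and 2 MEL induced) in a table of its own. No test was made across the tables, which were scaled separately. Per the study, the knockdowns and the induced cells were also sampled at different times. There 12.4% of 11713 genes tested were raised and 14.8% lowered. The number of these calls depended on single libraries, as given in the closing section. Of the 334 raised genes of KD tested in both, 184 (55.1%) were raised on induction and 31 (9.28%) lowered, and of the 330 lowered genes 190 (57.6%) were lowered and 8 (2.42%) raised. Of the genes not called in KD 10.99% were raised and 13.7% lowered. Seen from induction, the genes raised in both made up 13.2% of those raised on induction, and those lowered in both 11.1% of those lowered. The median log2 fold change on induction was 1.15 for raised, -1.38 for lowered and -0.02 for other genes. *Slc4a1* changed by 3.93 in KD and 7.23 on induction on the log2 scale and *Alas2* by 2.10 and 5.48. *Cacna1g* (2.77 and 5.77) and *Mybpc3* (2.52 and 3.70) also rose in both. *Vim* fell in both, but its level on induction was 127 CPM in 1 induced library and 4.25 CPM in the other, from 632 and 467 CPM without induction, and the 2 induced libraries lay far apart (log2 fold change -3.06, SE 0.86, on induction). *Cbfa2t3* itself was not called on induction (0.63).

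Some genes went opposite ways in the 2 settings. *Pklr* rose in KD (0.92 on the log2 scale) and fell on induction (-1.39), as did *Slc2a1* (0.55 and -2.43), *Itgb3* (0.97 and -1.53) and *Myl9* (0.52 and -1.04). Genes with opposite calls outside the naming rule, picked after their values were seen, were *Ephx2*, an epoxide hydrolase (1.55 and -1.53), *Egln3*, an oxygen-sensing prolyl hydroxylase (1.05 and -1.20), and the long non-coding RNA *Neat1* (-0.99 and 1.85). *Ctsl*, an abundant fall of KD, was not called on induction (0.04), nor were *B2m* (-0.22) and *Csf2rb2* (0.43).

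**Figure D5:**
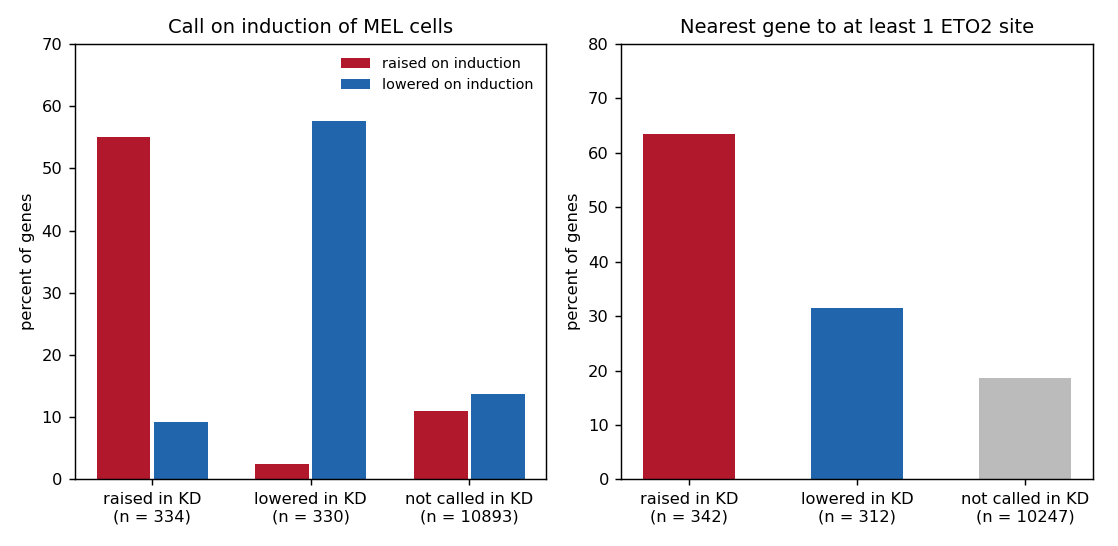
Left, percent of the genes raised (334), lowered (330) and not called (10893) in *Cbfa2t3* KD that were raised (red) or lowered (blue) on induction of MEL cells. Right, percent of genes with a position that were the nearest gene of at least 1 ETO2 site, which is 63.5% of raised, 31.4% of lowered and 18.7% of other genes.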

How the data were processed

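Per the labels and the study's methods, RNA-Seq reads of MEL cells were aligned by the authors to mm9 with TopHat2. The authors deposited raw counts per RefSeq gene together with RPKM values (reads scaled to gene length and library size), and both were taken as deposited. Columns with the authors' own log2 fold changes and p-values (3 columns) were not used. Counts were scaled by TMM and tested with the quasi-likelihood test of edgeR 4.0.16 (R 4.3.3), with 1 term for KD against control, after its filter on low counts, and p-values were adjusted by Benjamini-Hochberg over all genes tested. Calls needed an adjusted p of at most 0.05 and a log2 fold change at least 0.5 away from 0. Totals of 48974735 to 57684583 reads set the precision, and only 2 controls limit it. Scripts were tested on simulated data, in which 90.5% of 200 genes changed by 1 on the log2 scale were recovered for KD (12537 genes) and 27.5% for induction (11713 genes). The simulated KD libraries held no difference between sh2 and sh3, whereas the fit with 1 KD term counts that difference as spread. The 90.5% may therefore be higher than the recovery in these data. Same-numbered libraries deviated together (correlations of 0.252, 0.118 and 0.246 between control, sh2 and sh3), so that the replicate number was also tried as a block.

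Sites came from 1 list with the fold enrichment (a ratio of read numbers) as deposited by the authors, and a site shared with IRF2BP2 does not say to which antibody its fold belongs. Positions and sequences were read from mm9. Named genes were *Cbfa2t3*, the 12 largest rises and falls with a mean of at least 1 CPM and all KD libraries on 1 side of both controls, the 5 most abundant called genes per direction, and up to 4 called members of each list per direction, or the most abundant members where none was called. Well-known members were given where they were not called. The members and lists were chosen with earlier results of these data known. Alternatives were DESeq2 1.42.0 and its size factors, other filters, either hairpin alone, each hairpin with its own term and each library left out. The counts of the other knockdowns were not used here. A few genes that met the naming rule are not reported here.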

Additional observations from a re-analysis of the deposited data

Results flagged for a closer look

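The change with sh3 differed from that with sh2 in 27 of the genes reported, by an adjusted p of 0.05 or less and a log2 difference of 0.5 or more in edgeR's direct fit of the 4 KD libraries. Of the 26 that were called in KD, 24 lay farther from control with sh3 and 2 with sh2. *Cbfa2t3* itself differed by -0.73 on the log2 scale (sh3 minus sh2). Among the rises the difference was 1.38 for *Slc4a1*, 1.54 for *Hbq1b*, 0.60 for *Hbq1a*, 0.86 for *Art4* and 0.78 for *Acp5*. It was 0.70 for *Apol11a*, 0.83 for *Apol10a*, 0.76 for *Apol11b* and 0.98 for *Gm8221*. For genes of haem and iron it was 0.61 (*Alas2*), 0.55 (*Uros*), 0.75 (*Abcg2*), 0.71 (*Slc25a37*) and 0.53 (*Fam132b*), and for *Epb4.2* it was 0.56. The receptor genes *Csf2rb2* and *Csf2rb* differed by 0.69 and 0.53. Among the falls it was -0.71 for *Vim*, -1.02 for *Thy1*, -1.14 for *Gzmb*, -1.09 for *Anxa2*, -0.52 for *Laptm5* and -0.996 for *Clec2d*. The 2 genes with the larger rise in sh2 were *Mybpc3* (-0.51) and *Itgb3* (-0.63). *Lat* was not called in KD and differed by -0.58.

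A single KD library stood apart from the other 3 for 3 of 111 genes looked at. Chance gives about 1 in 20 for 4 libraries of 1 kind. These were 2 sh2 and 2 sh3 libraries, so that rate need not hold here, and 3 of 111 is not above it. *Id1* was at 36.7 CPM in sh2 library 2, above the other KD libraries, which still left it below both controls. *Capg* was at 61.0 CPM in sh2 library 1 and *B2m* at 72.6 CPM in sh3 library 1, each below the other 3.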

How the results depend on the processing

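The counts of called genes depended on the controls and on how the hairpins were treated. With each hairpin given its own term 450 genes rose and 450 fell, keeping 374 of the 375 and 345 of the 345 calls. With each library left out in turn, between 279 and 797 genes changed in KD, between 134 and 407 rose and between 145 and 390 fell, the low ends being those without control 1. With sh3 alone 1145 genes changed and 598 fell, and with no limit on the fold change 1423 changed, 686 up and 737 down. With the replicate number as a block 335 genes rose and 297 fell, keeping 334 of the 375 and 294 of the 345 calls. Among the 109 called genes named it ended 6 calls (*Laptm5*, *Kit*, *Slc25a37*, *Hba-x*, *Myl9* and *Dusp1*) and changed no other named call. DESeq2 called 396 raised and 349 lowered genes. No called gene changed sign under any of these settings. On induction, leaving out 1 library gave between 1522 and 3369 changed genes. Among sites at or above the median fold the shares of genes with a site were 44.2% (raised), 17.9% (lowered) and 10.9% (not called), and within 100 kb the last was 17.6%. Only 2 libraries were sequenced for the control, and the causes of these shifts were not tested.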
